A study of Mus musculus with 13 samples.

Results

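The 10 genes described here encode enzymes that make or break down eicosanoids, the signalling lipids formed from arachidonic acid. They were taken by symbol from a table of read counts with 32544 gene symbols, and all 10 were found. Of these, 8 had enough counts to enter the test, which covered 12496 genes, and Ptgds and Alox15 did not. Lung tissue came from wild-type male C57BL/6J mice, bought at 7 weeks of age, that breathed either 21% oxygen (normoxia, 7 libraries) or 80% oxygen (hyperoxia, 6 libraries) for 5 days. The lungs were flushed with cold buffer and frozen, so each library holds RNA of the whole tissue, and no transgene or drug was involved. Quant-seq, which reads the 3′ end of messenger RNA, was run on 500 ng of RNA per library.

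Arachidonic acid is freed from membrane phospholipids by phospholipases and then enters one of several routes. In the prostanoid route, the cyclooxygenases PTGS1 (COX-1) and PTGS2 (COX-2) form prostaglandin H, and terminal synthases turn it into individual prostanoids. PTGES makes prostaglandin E, PTGIS makes prostacyclin, PTGDS makes prostaglandin D and TBXAS1 makes thromboxane A. In the lipoxygenase route, ALOX5 works with its partner ALOX5AP at the start of leukotriene synthesis, and ALOX15 oxygenates arachidonic acid at another position. The lung is also known as a major site of prostaglandin clearance, where HPGD, a dehydrogenase, takes the first step of inactivation.

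The cyclooxygenase gene Ptgs2 and the synthase gene Ptges were higher in hyperoxic lung, while Hpgd, the breakdown gene, was lower. Ptgs2 was raised by 2.01 and Ptges by 1.14 on the log2 scale, and Hpgd fell by 1.79. None of the other 5 enzymes tested passed the threshold, and the leukotriene genes Alox5 and Alox5ap were among them. With edgeR's quasi-likelihood test and Benjamini-Hochberg adjustment over all genes tested, 2 of the 8 enzymes were higher and 1 was lower at a threshold of 0.05. Among all genes tested 11.8% were higher and 10.8% lower, so calls were frequent throughout the transcriptome. The median log2 fold change of the 8 enzymes was −0.01, against −0.03 for all genes tested.

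PTGS2 and PTGES act one after the other in the making of prostaglandin E, and the genes of both rose, so the stretches before their start sites are shown together with that of Hpgd. Each window holds the 250 bases before the start site of the RefSeq gene (build GRCm38.p6, gene strand, 5′ to 3′), and 7 of the 10 enzymes had a window. The RefSeq start of Ptges lies inside the longer span that the annotation used for gene coordinates gives to Ptges, so distances there are from the RefSeq start. Capitals mark matches on either strand to the GC box GGGCGG or to a loose NF-kB pattern, GGG and CC with any 5 bases between them. The Ptgs2 window is chr1:150099781-150100030 on the plus strand, the Ptges window is chr2:30903298-30903547 on the minus strand, and the Hpgd window is chr8:56294302-56294551 on the plus strand.
Ptgs2: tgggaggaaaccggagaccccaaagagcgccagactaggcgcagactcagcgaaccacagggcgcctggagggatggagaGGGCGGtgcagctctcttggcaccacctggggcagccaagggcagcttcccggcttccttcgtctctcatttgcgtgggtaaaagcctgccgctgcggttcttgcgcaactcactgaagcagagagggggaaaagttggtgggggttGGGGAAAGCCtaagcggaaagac
Ptges: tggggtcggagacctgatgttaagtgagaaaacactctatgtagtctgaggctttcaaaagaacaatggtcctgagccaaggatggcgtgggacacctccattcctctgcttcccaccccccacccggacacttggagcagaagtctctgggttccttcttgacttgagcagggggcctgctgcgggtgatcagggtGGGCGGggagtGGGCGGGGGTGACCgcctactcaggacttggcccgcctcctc
Hpgd: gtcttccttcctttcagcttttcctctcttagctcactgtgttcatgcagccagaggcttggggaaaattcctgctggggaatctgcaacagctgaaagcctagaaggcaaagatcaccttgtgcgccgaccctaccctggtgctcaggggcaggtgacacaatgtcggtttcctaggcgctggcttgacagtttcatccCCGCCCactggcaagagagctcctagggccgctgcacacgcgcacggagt

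The Ptgs2 window had 1 GC box, starting 170 bases before the RefSeq start, and 1 match to the NF-kB pattern, starting 23 bases before it. The Ptges window had GC boxes at 53 and 42 bases and a match to the NF-kB pattern at 38 bases, which overlaps the second GC box. The Hpgd window had 1 GC box at 50 bases, on the opposite strand, and no match to the NF-kB pattern. Among the windows not shown, that of Ptgds had 1 match to the NF-kB pattern and that of Alox5 had 2. Ptgds did not enter the test and Alox5 did not pass it. The windows of Ptgs1 and Tbxas1 had no match to the NF-kB pattern. Both patterns are common, since 32.7% of 32817 windows held a GC box and 45.8% held the NF-kB pattern. The windows of Ptgs2, Ptges and Hpgd held no match to the CRE core TGACG (17.7% of all windows), the E-box CACGTG (6.02%) or the AP-1 pattern TGANTCA (6.75%). They also held no TATAAA (12.4%) and no CCAAT (33.8%). These matches describe letters only, and binding of a factor was not measured. Bases after the RefSeq starts, or farther before them, were not searched. A pattern absent from a window may therefore lie just outside it, and the absences do not describe whole promoters.

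Total counts per library ran from 1607111 to 3387736 in normoxia and from 2029006 to 4540288 in hyperoxia. Levels of single genes are given as CPM, a gene's counts per 1000000 counts of its library, after TMM scaling, and a floor of 3 counts equals between 0.656 and 1.84 CPM, depending on the library. Hyperoxia replicate 1 stood apart from the rest, since its log2 CPM correlated at 0.721 to 0.833 with the other libraries, which correlated at 0.854 to 0.967 among themselves. It was kept, and values without it are given for enzymes whose log2 fold change it moved by over 1.5 times or whose overlap it changed. Library names fall into letters B to M and O to S, whose meaning the labels do not give, and the differences within each letter set are given for the 8 enzymes tested. The difference between letter sets was not tested for any gene.

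Ptgs2, the inducible cyclooxygenase, spans chr1:150100031-150108227 on the plus strand of GRCm38. Its level ran from 6.24 CPM in the lowest normoxic library through a median of 8.50 to 20.9 CPM in the highest. In hyperoxia the lowest library was at 11.8, the median at 46.2 and the highest at 81.3 CPM. The groups overlapped in 1 library only, hyperoxia replicate 1, which lay below normoxia replicates 4 and 5, and the other 5 hyperoxic libraries were above every normoxic one. Normoxic libraries had a mean of 11.4 ± 6.43 CPM (SD, n = 7) and hyperoxic libraries a mean of 45.0 ± 24.4 CPM (SD, n = 6). The log2 fold change was 2.01 with a standard error of 0.40 and an adjusted p of 0.00205 (edgeR). Only 0.656% of all genes tested had a larger log2 fold change. Without hyperoxia replicate 1 the log2 fold change of Ptgs2 was 2.23, with an adjusted p of 0.000122 (edgeR). Group means of log2 CPM differed by 1.42 within letters B to M and 2.63 within O to S.

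Ptges, the microsomal prostaglandin E synthase that works downstream of the cyclooxygenases, spans chr2:30889471-30929863 on the minus strand, where the overlapping gene Gm13400 had no count in any library. Normoxic libraries held 12.8 CPM at the lowest, 21.2 at the median and 22.4 at the highest. Hyperoxic libraries held 35.5 CPM at the lowest, 40.9 at the median and 55.2 at the highest. Every hyperoxic library was above every normoxic one, and hyperoxia replicate 1, at 42.9 CPM, was the second highest of its group. From a normoxic mean of 19.2 ± 3.73 CPM (SD, n = 7) the level rose to a hyperoxic mean of 42.2 ± 6.88 CPM (SD, n = 6), with a log2 fold change of 1.14, a standard error of 0.17 and an adjusted p of 0.000222 (edgeR). Of all genes tested, 3.19% had a larger log2 fold change. The difference was 0.95 within letters B to M and 1.45 within O to S.

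The highest Ptgs2 level was in hyperoxia replicate 3, whereas the highest Ptges level was in hyperoxia replicate 4. Hyperoxia replicate 1 had the lowest Ptgs2 of its group, at 11.8 CPM, and the second highest Ptges.

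Hpgd encodes 15-hydroxyprostaglandin dehydrogenase and spans chr8:56294585-56321043 on the plus strand, where it overlaps the predicted gene Gm45540. In normoxia the lowest library was at 157 CPM, the median at 291 and the highest at 451 CPM. In hyperoxia the lowest was at 63.8, the median at 88.2 and the highest at 115 CPM. The groups did not overlap, and hyperoxia replicate 1 had the lowest value of all. Normoxic libraries averaged 309 ± 108 CPM (SD, n = 7) and hyperoxic libraries 89.5 ± 21.4 CPM (SD, n = 6). The log2 fold change was −1.79 with a standard error of 0.24 and an adjusted p of 0.000104 (edgeR), and 1.34% of all genes tested had a smaller log2 fold change. The difference was −2.16 within letters B to M and −1.13 within O to S.

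Both non-overlapping enzymes, Ptges on the higher side and Hpgd on the lower side, can be set against all genes tested, of which 5.6% lay wholly higher and 5.23% wholly lower in hyperoxia. Without hyperoxia replicate 1 there were 2 such enzymes on the higher side, the second being Ptgs2, and 8.31% of all genes tested then lay wholly higher. The calls of Ptgs2, Ptges and Hpgd held when each of the 13 libraries was left out in turn and under the 9 other settings of the fit. Across the fits without 1 library, the log2 fold change lay between 1.78 and 2.27 for Ptgs2, between 1.07 and 1.22 for Ptges and between −1.88 and −1.65 for Hpgd.

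**Figure D1:**
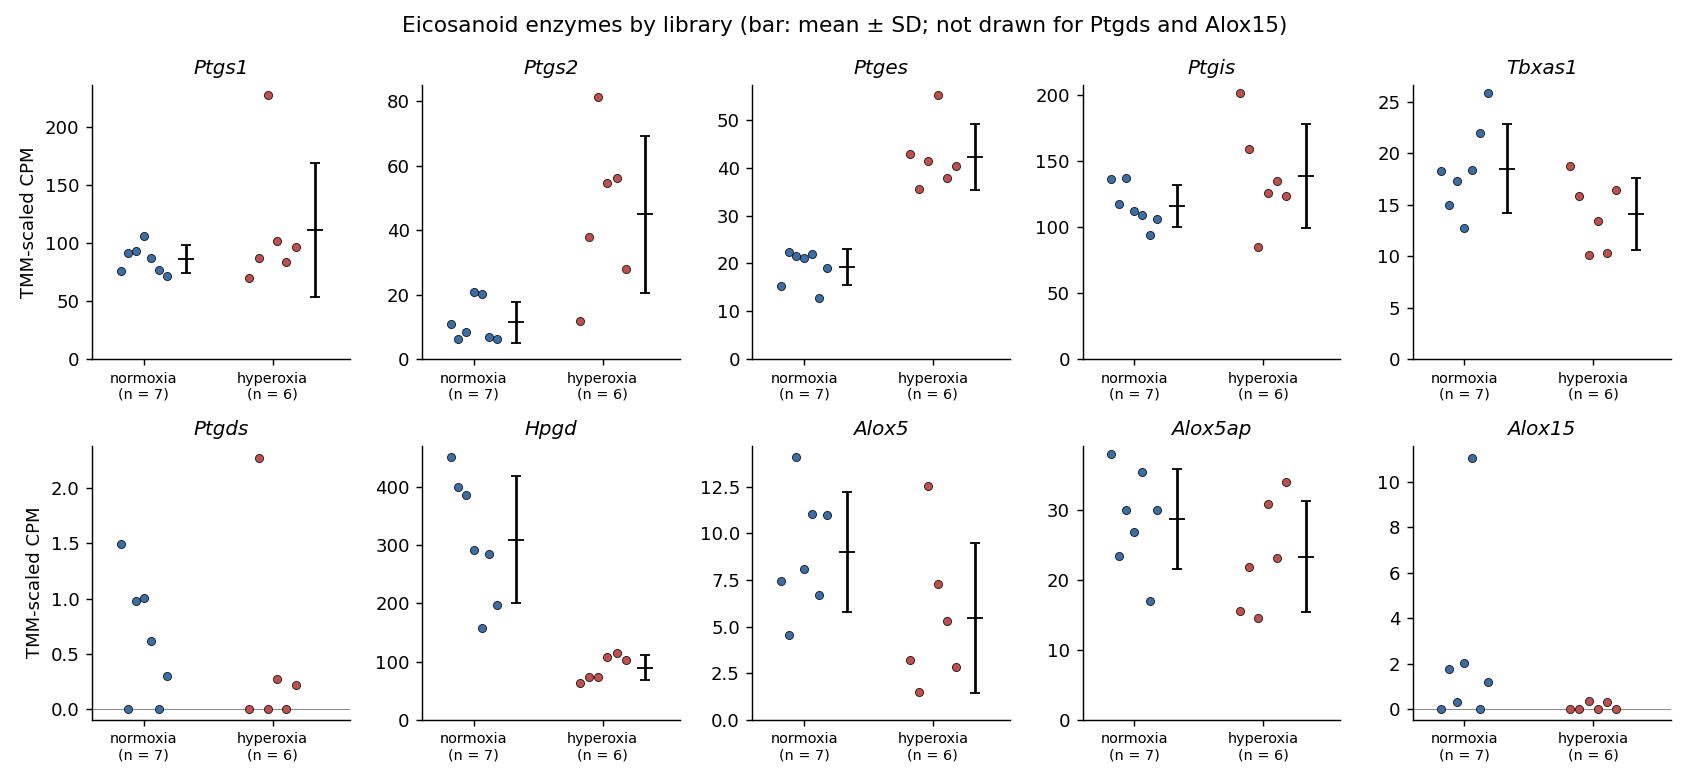
TMM-scaled CPM of the 10 enzymes in each of 7 normoxic (blue) and 6 hyperoxic (red) libraries, on a linear axis of its own for each gene, with points in replicate order from left to right and bars for the mean ± SD, which are left out for Ptgds and Alox15. Ptges lies wholly above in hyperoxia (35.5 CPM or more against 22.4 or less), Hpgd lies wholly below (115 CPM or less against 157 or more), and 1 Ptgs1 library in hyperoxia stands at 228 CPM.

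The constitutive cyclooxygenase Ptgs1 (chr2:36230426-36252272, plus strand) did not pass the threshold. It ran from 72.0 CPM through a median of 87.6 to 106 in normoxia, and from 70.2 through 92.1 to 228 in hyperoxia. The 228 CPM belonged to hyperoxia replicate 3 alone, while the other 5 hyperoxic libraries were at 102 CPM or less, inside the normoxic range except for replicate 1 just beneath it. The log2 fold change was 0.37 with a standard error of 0.23 and an adjusted p of 0.279 (edgeR). Without hyperoxia replicate 3 the log2 fold change was 0.06. Group means of log2 CPM differed by 0.31 within letters B to M, with overlap, and by 0.33 within O to S, without.

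Hyperoxia replicate 3, looked at further because of its Ptgs1 level, also had the highest Ptgs2 (81.3 CPM) and Alox5 (12.5 CPM) of the hyperoxic group. It had the lowest Ptgis (84.8 CPM), Tbxas1 (10.1 CPM) and Alox5ap (14.6 CPM) of that group. Its summed platelet and megakaryocyte markers were the lowest of all 13 libraries at 43.8 CPM, and its neutrophil markers, at 135 CPM, were inside the normoxic range.

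Ptgis, the prostacyclin synthase of vessel walls (chr2:167191805-167240604, minus strand), ran from 93.9 CPM through 112 to 137 in normoxia and from 84.8 through 131 to 202 in hyperoxia. The groups overlapped, with hyperoxia replicates 1 and 2 above every normoxic library and replicate 3 below every one. Its log2 fold change was 0.25 with a standard error of 0.17 and an adjusted p of 0.328 (edgeR). It was 0.13 without hyperoxia replicate 1 (adjusted p of 0.540, edgeR) and 0.39 without hyperoxia replicate 3 (adjusted p of 0.0918, edgeR). Within letters B to M the difference was 0.20, with overlap, and within O to S it was 0.36, without.

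Tbxas1, the thromboxane synthase known from platelets and macrophages (chr6:38875404-39084585, plus strand), ran from 12.8 CPM through 18.3 to 25.9 in normoxia and from 10.1 through 14.7 to 18.8 in hyperoxia. The groups overlapped, and 2 hyperoxic libraries were below every normoxic one. Its log2 fold change was −0.40 with a standard error of 0.22 and an adjusted p of 0.207 (edgeR). Within letters B to M the difference was −0.16, with overlap, and within O to S it was −0.83, with all 3 hyperoxic libraries below both normoxic ones. Tbxas1 overlaps Hipk2 on the other strand, and the counting was not stated to use strand. Hipk2 itself stood at 115 CPM in normoxia and 158 in hyperoxia, with a log2 fold change of 0.46 and an adjusted p of 0.0731 (edgeR).

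Ptgds, which makes prostaglandin D (chr2:25466709-25470046, minus strand), was close to the limit of detection. It had 12 counts in all over the 7 normoxic libraries and 8 over the 6 hyperoxic ones, of which 6 were in hyperoxia replicate 2. It had no count in 2 normoxic and 3 hyperoxic libraries, and a difference was not detectable at this depth.

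Neither Alox5 nor Alox5ap passed the test, and Alox15 did not enter it. Alox5 (chr6:116410077-116461178, minus strand) ran from 4.54 CPM through 8.07 to 14.1 in normoxia and from 1.51 through 4.27 to 12.5 in hyperoxia. The groups overlapped, although 3 hyperoxic libraries were below every normoxic one. Its log2 fold change was −0.70 with a standard error of 0.41 and an adjusted p of 0.239 (edgeR). Without hyperoxia replicate 3 this became −1.09, with an adjusted p of 0.0502 (edgeR). That was the strongest of the fits without 1 library. The weakest log2 fold change was −0.49, the adjusted p reached 0.425 (edgeR), and none of these fits passed the threshold. The groups overlapped within both letter sets, with differences of −0.93 in B to M and −0.75 in O to S.

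Alox5ap, the membrane partner of ALOX5 (chr5:149264767-149288153, plus strand), ran from 17.0 CPM through 30.0 to 38.1 in normoxia and from 14.6 through 22.5 to 34.1 in hyperoxia. The ranges overlapped widely. In the fit its log2 fold change was −0.28 with a standard error of 0.24 and an adjusted p of 0.437 (edgeR). It was −0.17 without hyperoxia replicate 1, −0.15 without hyperoxia replicate 3 and −0.18 without normoxia replicate 1, none past the threshold. Its direction differed between the letter sets. Group means of log2 CPM differed by −0.81 within B to M, where the groups did not overlap, and 0.35 within O to S, where they did.

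Alox15 (chr11:70344152-70352031, minus strand) was the other enzyme left out of the test. It had 34 counts in 5 of the 7 normoxic libraries, 18 of them in normoxia replicate 5, and 2 counts in 2 of the 6 hyperoxic libraries. No hyperoxic library rose above the floor of 3 counts. An exact two-sided permutation test of the difference in log2 CPM gave p = 0.0513. With every gene that had a count in the fit, Alox15 had a log2 fold change of −3.80 and an adjusted p of 0.0389 (edgeR), a fitted value that depends on the prior count. Without normoxia replicate 5 as well, the log2 fold change was −2.59 and the adjusted p was 0.126 (edgeR).

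Synthesis was set against breakdown by the log2 ratio of each enzyme's counts to those of Hpgd in the same library, which does not depend on how libraries are scaled to each other. Each ratio is read between groups only, and as a description, since it combines changes already tested. For Alox5, Alox5ap and Alox15 the ratio is a comparison with Hpgd only, since the breakdown step described for HPGD is that of prostaglandins. The log2 ratio of Ptgs2 to Hpgd was −4.75 ± 1.05 (SD, n = 7) in normoxia and −1.17 ± 0.85 (SD, n = 6) in hyperoxia, a difference of 3.58 or 12.0-fold. That of Ptges to Hpgd was −3.90 ± 0.69 and −1.05 ± 0.36, a difference of 2.85 or 7.20-fold. For both pairs the hyperoxic libraries, replicate 1 included, were all above the normoxic ones. As Ptges lay wholly higher and Hpgd wholly lower, the separation of their ratio was fixed by those results. The share of all genes whose ratio to Hpgd separates the groups was not computed.

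The ratios of Ptgs1 and Ptgis also separated the groups, although neither gene passed the test by itself. That of Ptgs1 went from −1.76 ± 0.57 to 0.23 ± 0.72, a difference of 1.99, and that of Ptgis from −1.33 ± 0.46 to 0.61 ± 0.61, a difference of 1.95. These shifts are close to the fall of Hpgd, which enters both ratios. The ratio of Alox5ap to Hpgd differed by 1.42, that of Tbxas1 by 1.35 and that of Alox5 by 0.90, with overlapping groups in each. Within letters O to S the Tbxas1 difference was 0.29, against 2.00 within B to M, and the Alox5 difference was 0.35, against 1.28. The ratio of Ptgds to Hpgd differed by 1.38 and that of Alox15 by 0.49, both from counts near the floor, and the latter turned to −0.29 with a prior count of 0.5 in place of 2.

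**Figure D2:**
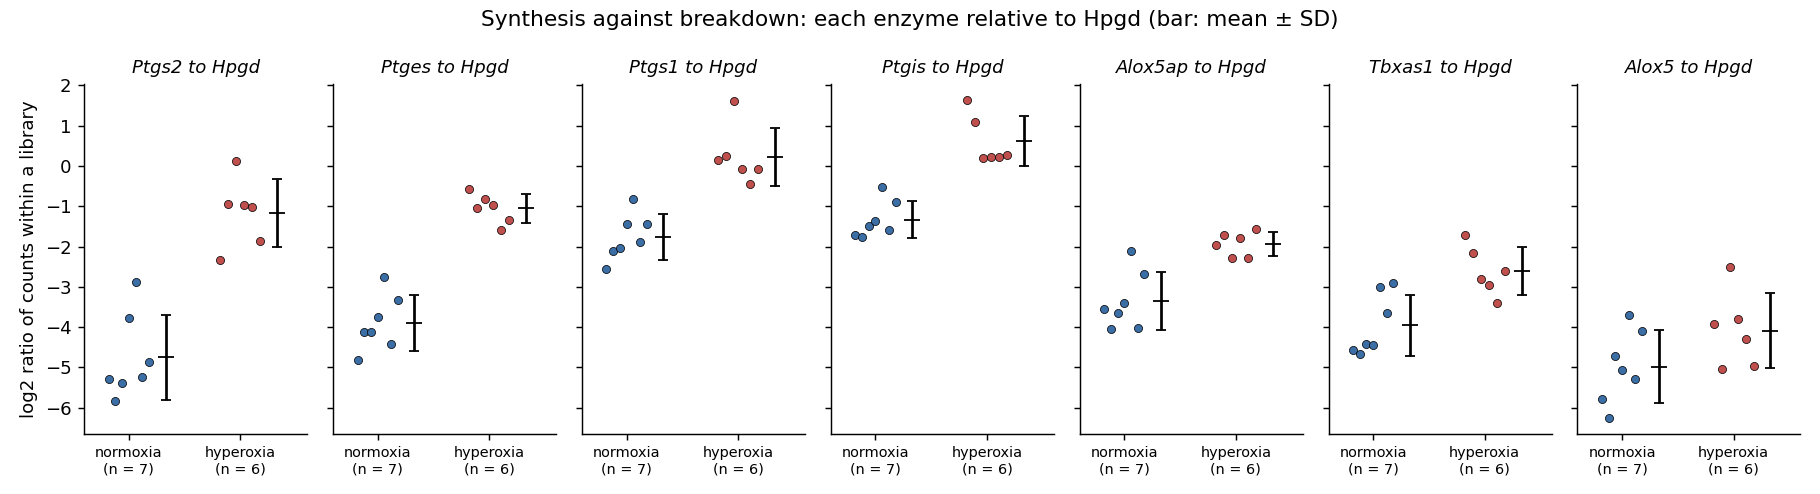
Log2 ratio of the counts of each enzyme to the counts of Hpgd in the same library (prior count of 2), for 7 normoxic (blue) and 6 hyperoxic (red) libraries with the mean ± SD. The ratios of Ptgs2, Ptges, Ptgs1 and Ptgis lie wholly higher in hyperoxia, with differences of 3.58, 2.85, 1.99 and 1.95, and those of Alox5ap, Tbxas1 and Alox5 overlap. Hpgd, which enters every ratio, lies wholly lower in hyperoxia.

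A further 63 genes of the pathway, from phospholipases to receptors, were followed as lists. Of these, 36 were tested, 3 were higher and 6 lower, where 11.8% of all genes tested were higher and 10.8% lower. The median log2 fold change of the 36 was −0.06, and 4 genes, Pla2g2a, Pla2g2e, Pla2g2f and Alox12b, had no count in any library.

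Of the 20 phospholipases, which release fatty acids such as arachidonic acid, 9 were tested, with 1 higher and 2 lower. Pla2g12a, a secreted phospholipase, was higher by 1.04 on the log2 scale (SE 0.20, adjusted p of 0.00176 by edgeR), with 13.9 to 31.6 CPM in normoxia and 37.2 to 71.8 in hyperoxia. Pla2g1b, a secreted enzyme best known from pancreas, fell by 2.39 (SE 0.52, adjusted p of 0.00337 by edgeR), from 13.8 ± 6.27 to 2.40 ± 1.81 CPM (SD). The Pla2g1b difference was −3.44 within letters B to M and −0.67, with overlap, within O to S. Pla2g16 fell by 0.66 (adjusted p of 0.00406 by edgeR) without overlap, from 113 ± 12.9 to 71.9 ± 15.0 CPM (SD). Pla2g4a, the cytosolic phospholipase known to feed cyclooxygenases, had a log2 fold change of 0.44 and an adjusted p of 0.249 (edgeR), and was named after its value was seen.

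Of the 6 other prostanoid synthases, 5 were tested and 1 was higher. Ptges3, a cytosolic prostaglandin E synthase that is also the HSP90 co-chaperone p23, rose by 0.75 (SE 0.15, adjusted p of 0.00186 by edgeR), from 193 to 238 CPM in normoxia to between 293 and 540 CPM in hyperoxia. Ptges2, the third prostaglandin E synthase gene, had a log2 fold change of 0.46 and an adjusted p of 0.181 (edgeR), and was also named after its value was seen.

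Of the 4 other leukotriene synthases, 3 were tested and 1 was lower. Lta4h, which makes leukotriene B from leukotriene A, fell by 0.64 (SE 0.19, adjusted p of 0.0236 by edgeR), and 5 of 6 hyperoxic libraries were below every normoxic one. Without normoxia replicate 3 its log2 fold change was −0.59 and its adjusted p was 0.0511 (edgeR). Mgst3 had a log2 fold change of 0.15 and an adjusted p of 0.793 (edgeR), and its sign changed with the fit. Among 5 other lipoxygenases none of the 2 tested passed, and Alox12 had a log2 fold change of −0.39 and an adjusted p of 0.187 (edgeR).

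Breakdown and transport held 13 genes besides Hpgd, of which 10 were tested, with 1 higher and 1 lower. The prostaglandin transporter Slco2a1, which carries prostaglandins into cells for clearance, had a log2 fold change of −0.01 (SE 0.13, adjusted p of 0.960 by edgeR), with 533 to 656 CPM in normoxia and 492 to 777 in hyperoxia. Its sign changed with the fit. Ggt5, which cleaves glutathione conjugates such as leukotriene C, fell by 1.24 (SE 0.26, adjusted p of 0.00280 by edgeR) without overlap. Abcc1, an exporter of leukotriene C, was higher by 0.66 (adjusted p of 0.0386 by edgeR), but this call held in only 5 of the 13 fits without 1 library, whose adjusted p reached 0.0749.

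Of the 9 prostanoid receptors, 5 were tested and 1 was lower. Ptgfr, the prostaglandin F receptor, fell by 1.52 (SE 0.26, adjusted p of 0.000588 by edgeR), with 12.8 to 28.2 CPM in normoxia and 4.58 to 11.8 CPM in hyperoxia. The prostaglandin E receptor Ptger1 had a log2 fold change of 0.31 and an adjusted p of 0.469 (edgeR), and 0.10 without hyperoxia replicate 1, 0.20 without hyperoxia replicate 5, 0.47 without hyperoxia replicate 2 and 0.47 without normoxia replicate 6. Of the 6 leukotriene and lipoxin receptors, 2 were tested. Fpr2 was lower by 1.01 (adjusted p of 0.0484 by edgeR), a call that held in 4 of the 13 fits without 1 library, with adjusted p up to 0.101, and Cysltr1 had a log2 fold change of −0.11 and an adjusted p of 0.802 (edgeR). All 9 pathway genes called had the same direction within both letter sets.

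**Figure D3:**
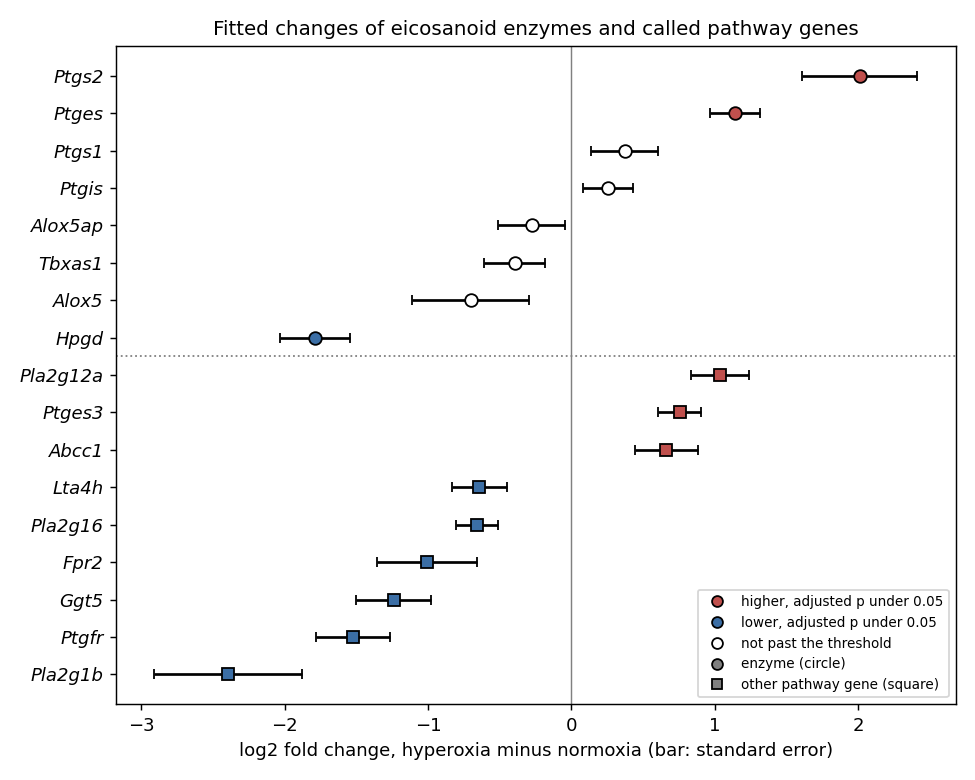
Log2 fold change of hyperoxia minus normoxia with its standard error, for the 8 enzymes tested (circles, above the dotted line) and the 9 other pathway genes past the threshold (squares). Red points are higher and blue points lower at an adjusted p under 0.05, and white points did not pass. Ptgs2 (2.01) and Hpgd (−1.79) are farthest apart among the enzymes.

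Whole-lung RNA mixes many cell types, so that fewer cells of a type and less RNA per cell cannot be told apart in any value given here. Defining markers of the labelled tissue were present, since the 6 alveolar type 2 markers, among them surfactant genes, summed to 12382 to 23028 CPM in normoxia. In hyperoxia 5 of these 6 genes were lower. Their sum was 3181 to 6846 CPM in hyperoxia, without overlap, and their median log2 fold change was −1.71, beside −1.79 for Hpgd. Of 7 endothelial markers 4 were lower, with a median of −0.79 and summed levels of 3302 to 5492 CPM in normoxia and 1257 to 4793 CPM in hyperoxia. Most of the endothelial sum was Pecam1, at 2773 CPM on average in normoxia and 1605 in hyperoxia, which did not pass the test (adjusted p of 0.198, edgeR). Cdh5 and Cldn5 had positive log2 fold changes, 0.18 and 0.46, and did not pass either. The part of the alveolar type 2 and endothelial markers in the fall of Hpgd was not tested.

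Markers of smooth muscle and pericytes moved the other way. Of 6 such markers 3 were higher, and their sum went from 304 to 398 CPM in normoxia to 450 to 779 CPM in hyperoxia without overlap, the highest being hyperoxia replicate 1, which had the lowest Ptgs2 and the highest Ptgis of its group. Alveolar macrophage markers summed to 245 to 351 CPM in normoxia and 77.2 to 599 in hyperoxia, with 2 of 7 lower and 0 higher, and the 5 hyperoxic libraries other than replicate 1, which was the low one, held 355 to 599 CPM, all above the normoxic range. Most of that sum was Chil3, at 159 CPM on average in normoxia and 268 in hyperoxia, which did not pass the test (adjusted p of 0.235, edgeR), while the 2 lower markers were Siglecf and Krt79. Of 7 monocyte and recruited macrophage markers 2 were higher and 2 lower. Neutrophil markers summed to 104 to 202 CPM and 45.0 to 259 CPM, with 1 of 5 tested higher. The part of these lists in the values of Ptgs2, Ptges and Alox5 was not tested.

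Platelet and megakaryocyte markers, set beside Ptgs1 and Tbxas1, summed to 66.7 to 96.8 CPM in normoxia and 43.8 to 80.9 CPM in hyperoxia, with 1 of 5 tested lower. Beside Alox15, the eosinophil markers Epx and Prg2 were at 0 in all libraries and the 4 markers together reached at most 5.38 CPM. Normoxia replicate 5, which held 18 of the 34 normoxic Alox15 counts, had the lowest eosinophil sum of its group, 1.23 CPM. Mast cell and basophil markers reached at most 4.16 CPM. Of the remaining lists, 1 of 5 alveolar type 1 markers was lower, 1 of 5 fibroblast markers tested was higher and 2 lower, and 1 of 3 mesothelial markers tested was lower. Over all 74 markers, 56 were tested, 7 were higher and 18 lower.

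**Figure D4:**
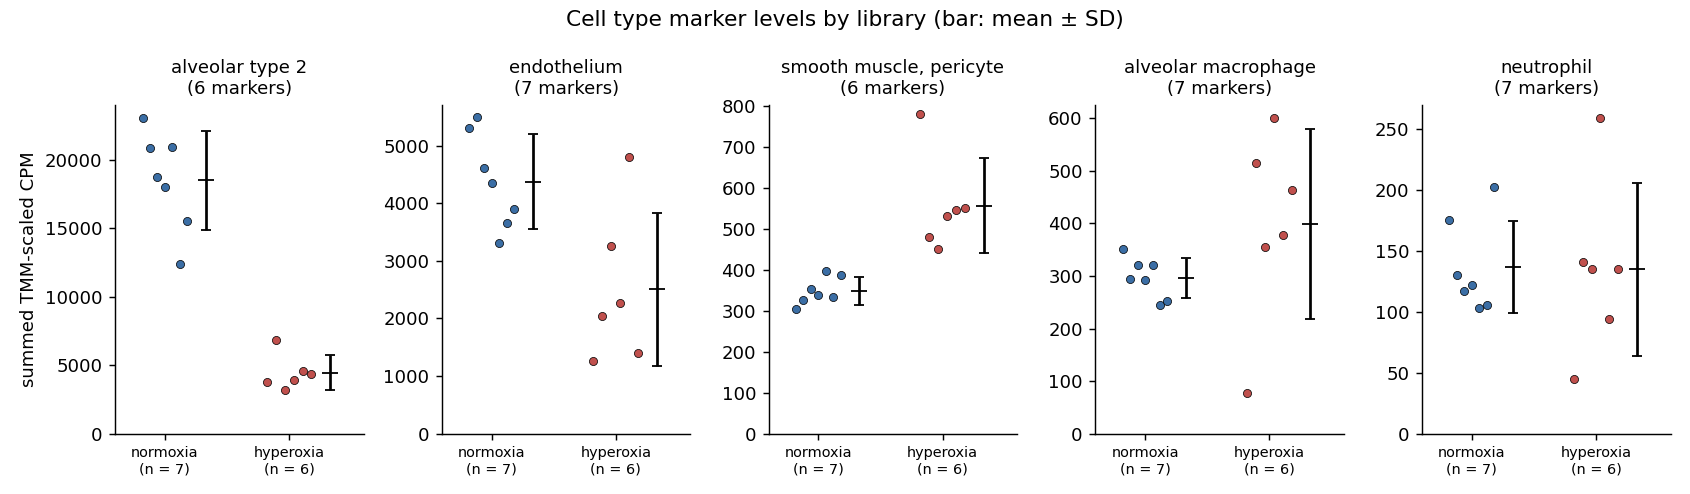
Summed TMM-scaled CPM of 5 marker lists in each of 7 normoxic (blue) and 6 hyperoxic (red) libraries, in replicate order with the mean ± SD. Alveolar type 2 markers lie wholly lower in hyperoxia (6846 CPM or less against 12382 or more) and smooth muscle and pericyte markers wholly higher (450 CPM or more against 398 or less), and the other lists overlap.

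Profiles across the 13 libraries were compared with those of Hpgd and Ptgs2 over 10111 genes, by the root mean square difference of centred log2 CPM, which is 0 for identical profiles. Nearest to Hpgd were Sema6a at 0.30, Tcp11l2 at 0.32 and Plscr4 at 0.37, where the median of all genes was 1.05. Nearest to Ptgs2 were Akr1c14 at 0.48, Tmem198b at 0.52 and the glucose transporter gene Slc2a1 at 0.52, with a median of 1.28. The points share their libraries and the difference between groups, so that likeness describes profiles only.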

How the data were processed

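The authors ran the BioJupies pipeline, in which kallisto assigns reads to transcripts, and deposited unnormalized counts per gene symbol, in whole numbers, for the 13 Quant-seq libraries. The deposited second table holds log10 of CPM plus 1, and recomputing it from the counts gave the same values to within 8.9e-16. The submitters' processing notes name mm10 and limma 3.54.2, and the annotation is not given in the sources used here. All columns were mapped by library name, with 0 left over. Groups and replicate numbers are those of the labels, which give 7 and 6 samples but do not tie each to an animal, so p-values measure the spread between these samples.

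Counts were tested across all genes with edgeR 4.0.16 (glmQLFit and glmQLFTest, R 4.3.3) with TMM scaling, on the 12496 genes that passed filterByExpr, with Benjamini-Hochberg adjustment and a threshold of 0.05. No covariate was used. Of the 32544 symbols, 12826 had no count. Log2 CPM and ratios use a prior count of 2. Means ± SD are of TMM-scaled CPM. Exact permutation tests were two-sided over 1716 splits, so the smallest p they can give is 0.000583. Same-group libraries differed by more than sampling noise in all 36 pairs (chi-square per gene of at least 3.79). Floors cover counting error only. Alternatives used DESeq2 1.42.0, limma-voom and limma (3.58.1) on the deposited log10 values, library size alone, other filters, a term for the letter set, a replicate block, the study's added log2 threshold of 1.5, and each library left out. A fit without hyperoxia replicate 1 and normoxia replicate 5 together, the Alox15 fit without normoxia replicate 5, and the alternatives of the marker counts were chosen after seeing the data.

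The enzymes and lists were chosen with earlier results of these data known. Text names all 10 enzymes, every other pathway gene past the threshold and the tested gene of each list with the highest average log2 CPM over the 13 libraries, and for Hpgd and Ptgs2 the 3 genes with the most similar profile at a mean log2 CPM of at least 3. Exceptions are marked. Coordinates are from a GRCm38 annotation matched by symbol. Promoter windows are from RefSeq (GRCm38.p6).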

Additional observations from a re-analysis of the deposited data

Results flagged for a closer look

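Samples were examined for standing apart within their group by Dixon's ratio, the gap from the extreme sample to its neighbour divided by the range, on the log2 scale. Of 72 groups examined, 10 passed the 95% critical value, where about 1 in 20, or 3.6, would by chance, and 4 of the 10 were hyperoxia replicate 1. Among the enzymes, Ptgs1 stood high in hyperoxia replicate 3 (ratio 0.681) and Ptgds stood high in hyperoxia replicate 2 (ratio 0.771), the latter on 6 counts.

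Among other pathway genes, Mgst3 stood low in hyperoxia replicate 1 (ratio 0.640), Cysltr1 stood low in normoxia replicate 1 (ratio 0.583) and Fpr2 stood low in normoxia replicate 7 (ratio 0.620). Of the marker sums, those of alveolar macrophages (ratio 0.744) and alveolar type 1 cells (ratio 0.719) were low and that of smooth muscle and pericytes (ratio 0.633) was high in hyperoxia replicate 1. The eosinophil sum was low in normoxia replicate 5 (ratio 0.619) and the mast cell and basophil sum was high in normoxia replicate 7 (ratio 0.616), both on few counts.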

How the results depend on the processing

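Ptgs2, Ptges and Hpgd kept their direction and their call in every fit run. With an absolute log2 fold change over 1.5 also required, Ptgs2 was the 1 enzyme higher, and Ptges, at 1.14, no longer counted. Hpgd stayed the 1 enzyme lower. By the same rule 0 other pathway genes were higher and 2 lower, and 194 genes were higher and 294 lower in all. Without a filter 2 enzymes were lower, the second being Alox15. Leaving out 1 library gave 2 higher and 1 lower enzymes throughout, 1256 to 1934 higher and 1049 to 1699 lower genes, 2 to 4 higher and 4 to 6 lower pathway genes, and 5 to 8 higher and 14 to 18 lower markers. Non-overlapping higher enzymes numbered 1 to 2, with 2 without hyperoxia replicate 1. Markers called higher numbered 4 with limma on the log CPM values. The share of higher genes among all called was 52.3%, and it fell to 42.7% when only library size was used (median log2 fold change −0.10) and to 38.8% with limma on log CPM (median −0.16). Within letters O to S the Tbxas1 to Hpgd difference was 0.29 and that of Alox5 to Hpgd 0.35, and with a prior count of 0.5 the Alox15 to Hpgd difference was −0.29. The cause of these changes was not tested.

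Same-numbered libraries did not deviate together (correlations of −0.325 to 0.272, 1 of 6 pairs above 0.1), and 0 of 6 hyperoxic libraries correlated best with their own number. With the replicate number as a block, 718 genes were higher and 626 lower, pathway genes lower numbered 3, and markers numbered 3 higher and 10 lower. Lta4h (log2 fold change −0.69, adjusted p of 0.104, edgeR), Pla2g1b (−2.60, 0.0515), Fpr2 (−1.25, 0.0635) and Abcc1 (0.57, 0.156) lost their calls there. Abcc1 also lost its call with library size alone (adjusted p of 0.0675), limma-voom (0.0631), limma on log CPM (0.129) and at least 10 counts in every library (0.0514), at log2 fold changes of 0.51 to 0.60. Fpr2 also lost its call with the letter set (0.0725), limma-voom (0.0512), no filter (0.0798) and without hyperoxia replicate 1 and normoxia replicate 5 (0.0598), at −1.08 to −0.98.

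Uncalled genes near 0 changed sign. Mgst3 was −0.10 with the letter set, −0.22 with limma on log CPM, −0.044 with limma-voom, −0.043 with the block, and −0.051 to 0.38 with 1 library left out. Slco2a1 was 0.018 with DESeq2, 0.020 with the letter set, 0.031 without a filter, 0.040 without hyperoxia replicate 1 and normoxia replicate 5, and −0.069 to 0.061 with 1 left out. Cysltr1 was 0.069 without those libraries. Depth limits Ptgds and Alox15.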

Other observations

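The prostaglandin D receptor gene Ptgdr2 had too few counts for the test and was named after its values were seen. It was at 0.476 ± 0.347 CPM (SD, n = 7) in normoxia, with a highest library of 1.05, and at 3.16 ± 1.81 CPM (SD, n = 6) in hyperoxia, with a lowest library of 1.13. The groups did not overlap, which is why it was picked among 63 pathway genes, so no test is given. The normoxic libraries and several hyperoxic ones were at or near the floor of 3 counts.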
